A study of Mus musculus with 3 samples.

Results

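The regions described here are dense clusters of SOX2 peaks in the mouse otocyst, an epithelial sac that gives rise to the inner ear. SOX2 peaks of chromosomes 1 to 19 were joined when no more than 5 kb lay between them, and joined groups of 5 or more peaks were kept as clusters. Of 95068 joined groups, 2445 were clusters. They held 16698 of 149295 SOX2 peaks on these chromosomes, or 11.2%, and spanned 39.3 Mb. The clusters were thus selected on measured values, the number and spacing of SOX2 peaks, and these values are given below as a description with no test.

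The peaks came from CUT&Tag, a method that tethers the Tn5 transposase to an antibody so that DNA around the antibody's target is cut and tagged. Cells of 34 pooled otocysts, microdissected from wild-type mouse embryos at day E10.5 and dissociated with Accutase, were divided into 3 samples. The antibody was to CHD7 in the first sample and to SOX2 in the second; the sample without a primary antibody was not analysed here. Each antibody gave 1 library from the same pool, so no value has a replicate check, no test between libraries exists, and a difference in cell number or in cell types between the samples cannot be seen. Read depth is unknown, since the deposited lists hold peaks and not reads. Intervals are exact binomial (Clopper-Pearson) at 95% and cover counting error only. Neighbouring peaks of a cluster are not independent.

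SOX2 is an HMG-box transcription factor that binds short A/T-rich DNA motifs, often beside POU factors, and is needed for the sensory and neural cells of the inner ear. CHD7 is an ATP-dependent chromatin remodeler found at enhancers and active promoters, and its loss of function causes CHARGE syndrome, in which the semicircular canals are malformed. Dense groups of transcription factor peaks are known from the regulatory regions of developmental genes. They are also known from tandem repeats and recent gene duplications, where reads from near-identical copies cannot be placed with certainty. The clusters were therefore divided by the names of the genes they overlap. Clusters over at least 1 gene of 9 developmental lists (transcription factor families and the FGF, BMP, WNT, Notch, hedgehog and retinoic acid pathways) numbered 144. Clusters whose genes were all predicted or unnamed models, such as Gm and Rik symbols, numbered 327. A further 1540 clusters overlapped other named genes and 434 overlapped no gene. No genome sequence and no repeat annotation were used here, so that "repeat-like" below means near-identical annotated promoters or dense predicted models, and the sources used here do not give how reads that match several copies were handled.

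Promoter sequences that lay under clustered SOX2 peaks are printed here as examples from both ends of this range. They were chosen for a motif at one end and for copying at the other, so they do not measure a difference between classes. The following are 300-base promoters from RefSeq for the build GRCm38.p6, the assembly also called mm10, each running from 250 bases before to 50 bases after the annotated start. Neurog1, the proneural factor of the inner ear ganglion (chr13:56252131-56252430, minus strand), Nrarp, a feedback inhibitor of Notch signalling (chr2:25180508-25180807, plus strand), and the Notch ligand gene Dll1 (chr17:15375774-15376073, minus strand) are shown because they hold a SOX or POU motif, which stands in capitals.

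Neurog1: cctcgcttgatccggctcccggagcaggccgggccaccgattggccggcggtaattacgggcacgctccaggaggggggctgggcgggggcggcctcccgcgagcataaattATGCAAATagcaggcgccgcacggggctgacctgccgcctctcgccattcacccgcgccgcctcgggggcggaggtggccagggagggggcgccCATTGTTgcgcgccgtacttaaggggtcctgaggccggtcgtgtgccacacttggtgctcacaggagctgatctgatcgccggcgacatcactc
Nrarp: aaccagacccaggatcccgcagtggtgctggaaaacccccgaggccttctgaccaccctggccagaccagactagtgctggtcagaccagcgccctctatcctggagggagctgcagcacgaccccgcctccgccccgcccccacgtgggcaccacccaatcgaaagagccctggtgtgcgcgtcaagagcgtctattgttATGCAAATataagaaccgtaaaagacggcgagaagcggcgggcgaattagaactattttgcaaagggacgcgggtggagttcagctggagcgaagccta
Dll1: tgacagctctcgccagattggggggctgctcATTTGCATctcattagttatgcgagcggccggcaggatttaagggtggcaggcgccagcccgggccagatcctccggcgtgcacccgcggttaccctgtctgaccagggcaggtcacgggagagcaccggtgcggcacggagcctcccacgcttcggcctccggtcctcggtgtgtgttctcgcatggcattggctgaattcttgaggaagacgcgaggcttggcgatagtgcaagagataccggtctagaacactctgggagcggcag

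Motifs were searched on both strands as AACAATG and AACAAAG for SOX factors and as ATGCAAAT for POU factors, and the matches in these promoters did not overlap one another. In the Neurog1 promoter the POU motif began 138 bases and the SOX motif 44 bases before the start. In the Nrarp promoter the POU motif began 49 bases before the start, and in the Dll1 promoter 219 bases before it. The SOX2 peak on the Neurog1 promoter had a total signal of 2287, that on Nrarp 4017 and that on Dll1 2492, in the authors' coverage units. Neurog1 and Nrarp each had a CHD7 peak on the promoter, and Dll1 had none. Such matches were not frequent. Under SOX2 peaks of developmental clusters lay 114 promoters, those of neighbouring genes in these clusters included. ATGCAAAT stood in 3 of them, or 2.63% (0.546% to 7.50%), against 1.75% of all 31396 promoters. AACAATG stood in 1 of these 114, the Neurog1 promoter, against 3.75% of all promoters, and AACAAAG in 3 of them, or 2.63%, against 5.80%. Under SOX2 peaks of clusters over predicted models only lay 149 promoters. Among these AACAATG stood in 7, or 4.70% (1.91% to 9.44%), AACAAAG in 8, or 5.37% (2.35% to 10.3%), and ATGCAAAT in 2, or 1.34% (0.163% to 4.76%). The 114 promoters of developmental clusters were GC-rich, with a median of 65.7% G and C against 53.0% over all promoters. The SOX motifs and the POU motif are all A/T-rich, and a link between base composition and these shares was not tested. A match is a description of the letters and not a binding site.

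The other end of the range is shown by 3 promoters from the start of chromosome 14. They belong to a family of 57 genes, all on this chromosome, each of whose promoters is a near-identical copy of at least 1 other (90% identity or more over 250 or more bases). Members of the family need not match one another. Of its 28 promoters under a clustered SOX2 peak, 7 matched Gm3636 itself at these limits, and Gm3636 is printed because it had the most such direct matches. Gm3636 (chr14:6757008-6757307), Gm3194 (chr14:5460361-5460660) and Gm3667 (chr14:6889882-6890181) all lie on the minus strand. Capitals in Gm3194 and Gm3667 mark bases that differ from Gm3636 where the copies align.

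Gm3636: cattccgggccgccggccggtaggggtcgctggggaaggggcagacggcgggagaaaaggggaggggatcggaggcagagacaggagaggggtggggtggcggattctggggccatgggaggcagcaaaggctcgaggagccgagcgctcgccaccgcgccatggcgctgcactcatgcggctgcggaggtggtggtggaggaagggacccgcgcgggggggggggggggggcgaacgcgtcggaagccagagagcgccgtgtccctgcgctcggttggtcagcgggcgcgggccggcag
Gm3194: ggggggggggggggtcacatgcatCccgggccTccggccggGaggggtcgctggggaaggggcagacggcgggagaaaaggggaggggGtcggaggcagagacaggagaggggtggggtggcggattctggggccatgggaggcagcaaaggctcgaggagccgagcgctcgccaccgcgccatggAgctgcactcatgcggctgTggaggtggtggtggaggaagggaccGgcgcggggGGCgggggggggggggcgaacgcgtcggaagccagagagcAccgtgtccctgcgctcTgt
Gm3667: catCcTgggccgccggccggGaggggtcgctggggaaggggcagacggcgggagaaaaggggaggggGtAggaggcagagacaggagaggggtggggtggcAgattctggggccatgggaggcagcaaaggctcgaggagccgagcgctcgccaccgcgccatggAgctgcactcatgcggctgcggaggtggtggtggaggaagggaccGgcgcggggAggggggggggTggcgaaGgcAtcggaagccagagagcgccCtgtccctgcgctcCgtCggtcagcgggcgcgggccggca

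Gm3194 was identical to Gm3636 at 267 of 279 aligned bases, or 95.7%, and Gm3667 at 285 of 300, or 95%. The SOX2 peaks on these promoters had total signals of 10673 in Gm3636, 15248 in Gm3194 and 15248 in Gm3667, and each promoter also had a CHD7 peak. The clusters around them held 22, 21 and 18 SOX2 peaks in that order of genes. Reads of such copies may be shared between them, so the peaks of a single copy are uncertain.

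The number of SOX2 peaks and the width of the clusters, which the selection used, differed between the 4 classes mainly at the upper end. The median cluster held 6 peaks in 13950 bases, and widths ran from 3200 to 216100 bases. Developmental clusters held between 5 and 18 peaks, clusters over predicted models between 5 and 109, clusters over other named genes up to 44 and gene-free clusters up to 67. At the threshold, 1198 groups had exactly 5 peaks, with a median width of 11700 bases, and 2602 groups just outside it had 4 peaks, with a median width of 8900 bases. Clusters of 20 or more peaks numbered 51, and 38 of them lay over predicted models only, 11 over other named genes, 2 over no gene and 0 over developmental genes. They were concentrated in the genome, with 30 on chromosome 14 and 5 each on chromosomes 1 and 8.

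**Figure D1:**
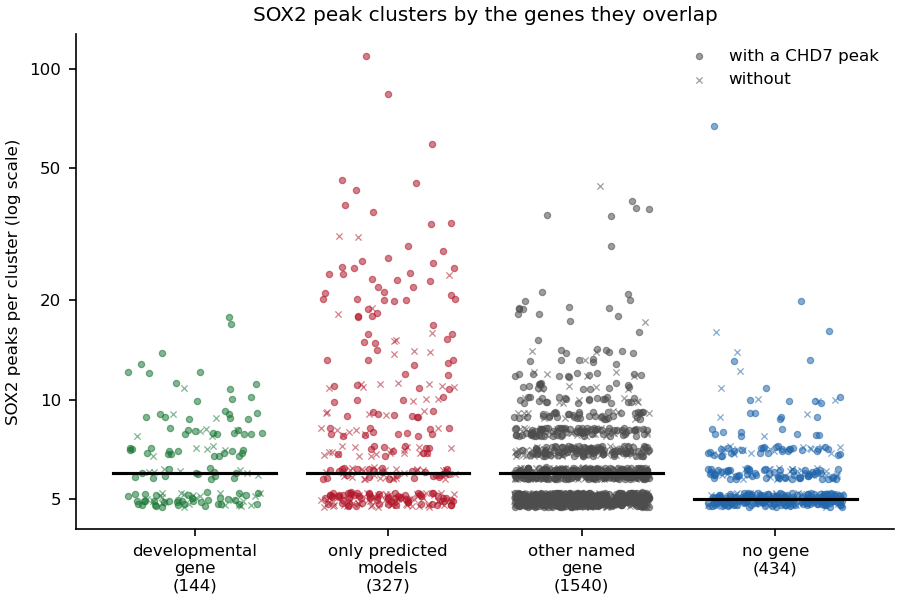
SOX2 peaks per cluster on a log scale (points jittered), by the genes the cluster overlaps, with the number of clusters under each class. Circles hold a CHD7 peak, crosses hold none, and black lines are medians. Developmental clusters stop at 18 peaks, and clusters over predicted models only reach 109.

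Clusters over developmental genes covered 132 of the 614 genes of the developmental lists, or 21.5% (18.3% to 25%), against 11.1% of all 20665 protein-coding genes. Among all protein-coding genes of the same length mix the share was 11.9%. Genes of these lists whose largest joined group had 4 peaks numbered 85, just below the threshold, and 88 genes overlapped no SOX2 peak. The lists were drawn up with earlier results of these data known, and coverage by clusters was not tested against chance. Among the developmental lists Notch genes had the highest share with 12 of 18 members, or 66.7% (41% to 86.7%), followed by SOX genes with 7 of 18 (38.9%) and WNT genes with 17 of 57 (29.8%). The bHLH list had 9 of 53 (17.0%), homeobox and paired-box genes 33 of 175 (18.9%), FGF genes 6 of 33 (18.2%) and hedgehog and retinoic acid genes 6 of 28 (21.4%). BMP and TGF-beta genes, with 7 of 54 (13%), were close to the share of all genes. The Hox genes, which pattern the body axis and lie side by side in dense arrays, were under no cluster: 0 of 39, which allows a share of up to 9.03%.

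**Figure D2:**
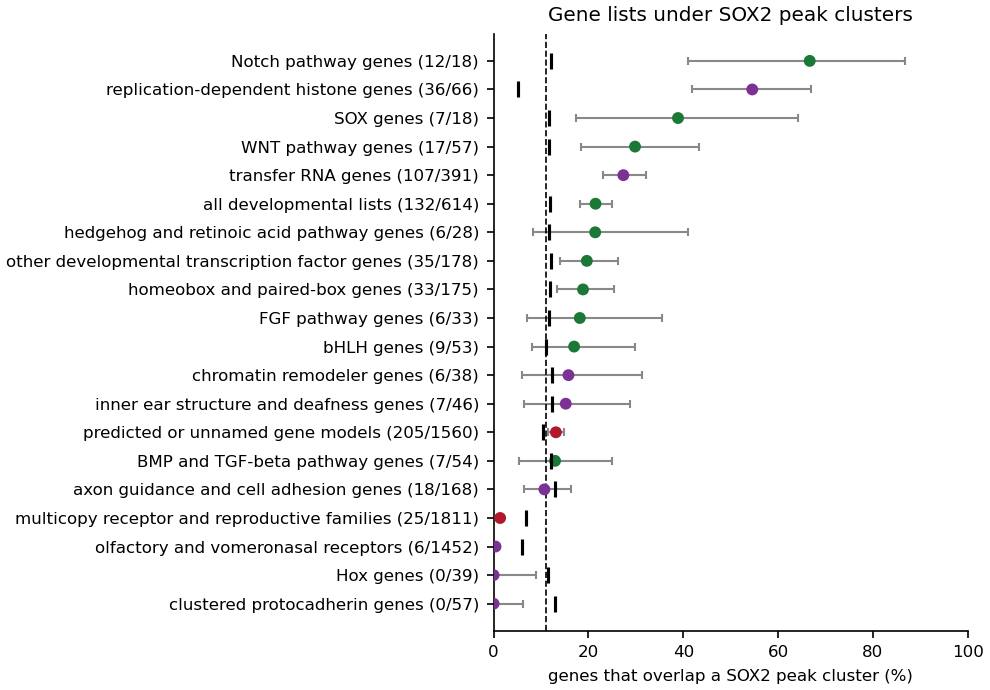
Percentage of genes of each list that overlap a SOX2 peak cluster, with exact binomial 95% intervals and, in brackets, covered genes and genes in the list. Green points are developmental lists, red points predicted models and multicopy families, purple points wider or later-added lists; black ticks give the share among all protein-coding genes of the same length mix, and the dashed line is 11.1%, the share of all protein-coding genes. Notch and histone genes stand at the top, and olfactory receptors, Hox genes and clustered protocadherins lie at or near 0.

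Notch signalling passes between neighbouring cells and divides the otic epithelium into neuroblasts, hair cells and supporting cells. Among ligand genes, Jag2 lay under a cluster of 10 SOX2 peaks with a summed signal of 27182, Dll4 under 9 peaks and Dll1 under 7. Among receptor genes, Notch1 and Notch4 each lay under a cluster of 7 peaks. All 3 Fringe glycosyltransferase genes, which tune the response of Notch receptors to their ligands, were covered, with 14 peaks at Lfng, 7 at Mfng and 5 at Rfng. The feedback inhibitor gene Nrarp had 6, and the coactivator genes Maml1 and Maml2 had 5 each. CHD7 peaks lay in 8 of these 12 clusters, with 2 each at Jag2, Notch1, Nrarp and Lfng and none at Dll1, Dlk2, Maml2 and Rfng, where 59.9% of all clusters and 68.8% of developmental clusters held one. Of the 87 SOX2 peaks in the 12 clusters 14 were on CHD7, or 16.1% (9.09% to 25.5%), an interval that holds both the 18.5% of all clustered peaks and the 23.7% of peaks outside clusters at the same signal. The Lfng cluster (chr5:140603501-140633650) began with a peak of total signal 1144 before the gene, had its strongest peak, of 7536, within the gene, and ended inside the neighbouring gene Ttyh3. The ligand gene Jag1, a marker of the prosensory region, missed the threshold with a largest group of 3 peaks, and Notch2 and Notch3 had groups of 2.

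The Notch target Hes5 lay under 8 SOX2 peaks with 3 CHD7 peaks, and the related repressor Hes3 under 13 with 2 (chr4:152279201-152303500). The clusters over the 9 covered bHLH genes all held a CHD7 peak, 10 of 10, against 68.8% of developmental clusters and 59.9% of all clusters. They included Id1 with 7 SOX2 and 4 CHD7 peaks and Id3 with 7 and 5, genes whose proteins hold bHLH activators inactive. The proneural gene Neurog1 had 6 and 1, Atoh8 11 and 1, and Tcf3, which encodes the common bHLH partner, 12 and 1. SOX genes under clusters were Sox13 with 11 SOX2 peaks, Sox8 and Sox18 with 9 each, Sox10 with 7, Sox17 and Sox21 with 6 each and Sox14 with 5. CHD7 peaks lay in 5 of these 7 clusters and in neither that of Sox13 nor that of Sox18, a count near those same shares.

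The lists hold few clusters each, and differences between them were not tested. A CHD7 peak lay in 59.9% of all clusters and in 68.8% of developmental ones. Clusters over homeobox and paired-box genes held a CHD7 peak in 28 of 34 cases, those over the other developmental transcription factors in 29 of 45 and those over hedgehog and retinoic acid genes in 6 of 7. Clusters over WNT genes held one in 8 of 17 cases and those over FGF genes in 2 of 6. In the WNT pathway the ligand gene Wnt7a had 8 SOX2 and 0 CHD7 peaks, the receptor gene Fzd9 7 and 0, and the feedback inhibitor gene Axin2 9 and 1. In the FGF pathway the receptor genes Fgfr3 and Fgfr2 had 8 and 0 and 5 and 1. In the hedgehog and retinoic acid pathways, Ptch1, encoding the hedgehog receptor, had 7 and 2, the receptor gene Rara 9 and 4, and Cyp26b1, whose product degrades retinoic acid, 7 and 1.

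Several genes known from the otic placode and vesicle lay under clusters. Gata3, needed for otic morphogenesis, had 5 SOX2 and 3 CHD7 peaks, and its relative Gata2 had 8 and 2. Otx1, needed for the lateral semicircular canal, had 5 and 3, Foxi3 5 and 2, Eya2 10 and 2, and the canal ligand gene Bmp4 7 and 1. The glial and otic factor Sox10 had 7 and 2. Other genes of the same kind did not reach a cluster. The largest group had 4 peaks at Lmx1a, Sox9 and Hmx3, 3 at Pax2, Eya1 and Chd7 itself, 2 at Sox2, Dlx5 and Pax8, and 1 at Otx2, so no cluster lay over Sox2 or Chd7.

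Developmental clusters with many SOX2 peaks covered 1 gene or several. The cluster with 18 peaks (chr10:79766801-79823050) ran across Rnf126, Fstl3, Prss57, Palm and Misp, of which Fstl3, encoding an activin-binding protein, put it in this class. The next, with 17 (chr3:87938651-87989300), ran across Crabp2, which encodes a retinoic acid carrier, Nes, which encodes the progenitor cell intermediate filament nestin, and Bcan. Pax7 and Sox13 were each the 1 gene under their cluster. Nfib and Pax7 each had 12 SOX2 peaks, Pou3f3 and Npas1 11 each. Some genes carried several clusters along their length, with 5 at Prdm16, 4 at Nfix, 3 at Lmx1b and 2 each at Zfpm1, Tcf3, Ebf1, Rara and Foxp4. The pair Dlx1 and Dlx2, homeobox genes of the forebrain and branchial arches (chr2:71527001-71546800), held 9 SOX2 and 6 CHD7 peaks. A cluster classed by name as predicted, over the long noncoding model 2610035D17Rik on chromosome 11 (chr11:113162201-113188850), held 11 and 8, and its next developmental gene was Sox9 at 374 kb.

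**Figure D3:**
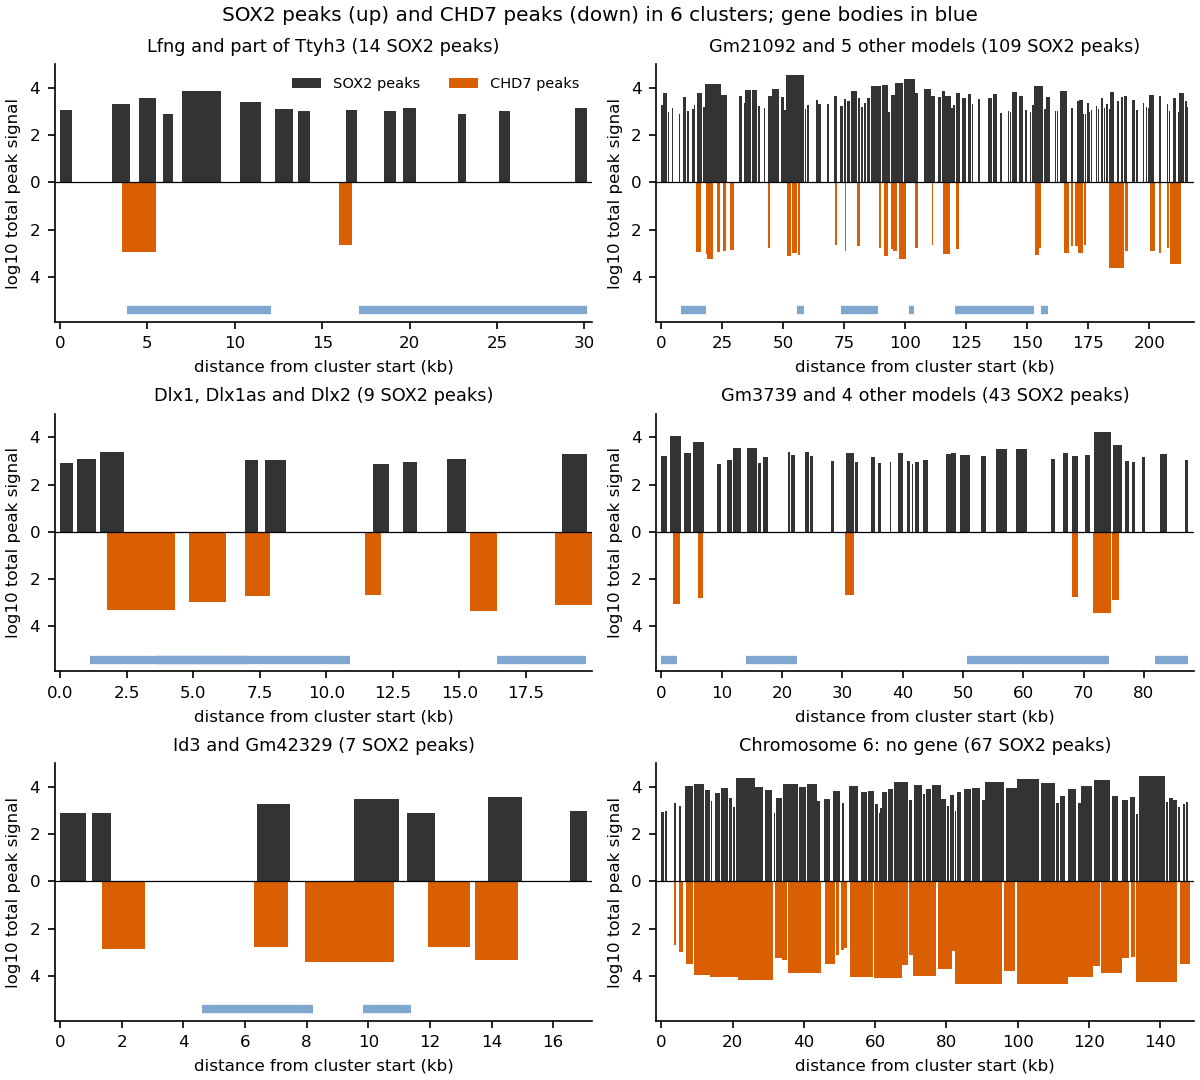
Peaks of 3 developmental clusters on the left and 3 clusters on the right, over predicted models of chromosomes 8 and 14 and over no gene on chromosome 6, by distance from the cluster start in kb; bars give log10 of total signal of SOX2 peaks (up) and CHD7 peaks (down), on each list's own scale, and blue bars are gene bodies. SOX2 peaks are separated by open stretches at Lfng, Dlx1 and Dlx2, and Id3, and follow each other closely over up to 216 kb on chromosomes 8 and 6.

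In the Id3 cluster (chr4:136134001-136151100) the strongest SOX2 peaks, of 3900 and 3167, both overlapped the strongest CHD7 peaks, of 2204 and 2550. The SOX2 peak of 3167 covered most of the Id3 gene, and that of 3900 lay outside it. In the Dlx1 and Dlx2 cluster the strongest CHD7 peak, of 2286, lay between the genes and touched no SOX2 peak, while 5 of the 9 SOX2 peaks were on CHD7. Strong peaks of both lists thus coincided in the Id3 cluster and were offset in part in the Dlx cluster.

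Large clusters and clusters with copied promoters brought many strong peaks to the predicted class, and peaks filled more of its largest cluster than of the median cluster. Of the 3250 SOX2 peaks in predicted clusters 23.4% were in the strongest 10% of all SOX2 peaks, against 16% of the 976 peaks in developmental clusters. In predicted clusters with a copied promoter the share was 30.7%, and without one it was 16%, as in developmental clusters. In predicted clusters of 5 to 9 peaks it was 13.2%, against 15.8% in developmental clusters of that size. The largest cluster of all had 109 SOX2 peaks with total signals from 762 to 36536 and a median of 2668, over 216100 bases of chromosome 8 (chr8:20493901-20710000) and 6 predicted models, Gm21092 among them. Its neighbours held 84 (chr8:20000651-20157250) and 59 peaks (chr8:20335351-20442750). Together 11 clusters with 374 SOX2 peaks lay in a run of 1.27 Mb here, all over predicted models only. Of the 9 genes there with a promoter sequence 3 had a near-identical copy. Peaks filled 63.7% of the span of the largest cluster, against 31.5% for the median of all clusters. The median was 32.6% in predicted and 33.6% in developmental clusters, so the classes were alike in this value. Single clusters reached 80.1% in the predicted and 67.5% in the developmental class.

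The largest run was at the start of chromosome 14, where 90 clusters with 1345 SOX2 peaks lay within 4.65 Mb, 76 of them over predicted models only. They overlapped 126 genes, 124 of which were predicted models, and of the 89 genes with a promoter sequence 79 had a near-identical copy elsewhere. A pair of runs on chromosome 5 held 12 and 6 clusters, and a second run on chromosome 14 held 12. In 1 cluster of the large run (chr14:6360651-6449200, 40 peaks) the processed pseudogene Lamtor3-ps lies among the predicted models, so its name puts it among other named genes. When a cluster was instead called predicted where more than 50% of its genes were, an alternative chosen after seeing the data, the class held 383 clusters in place of 327.

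Copied promoters were spread unevenly over the classes. Over all 25748 genes with a promoter sequence, 5.86% had a near-identical copy. The share was 0 of 190 genes in developmental clusters, which allows up to 1.92%, and 127 of 303 in clusters over predicted models, or 41.9% (36.3% to 47.7%). In clusters over other named genes it was 80 of 1882, or 4.25% (3.38% to 5.26%). Among predicted models alone the share was 156 of 664 in clusters, or 23.5% (20.3% to 26.9%), against 5.70% (5.24% to 6.18%) outside them. The share went with cluster size within the predicted class: 24.6% in clusters of 5 to 9 peaks, 74.5% with 10 to 19 peaks and 81.8% with 20 or more. In clusters over other named genes the share rose with size as well, with 2.60%, 8.48% and 55.8% in the same order. Among genes of the developmental lists outside clusters it was 1 of 324, or 0.309% (up to 1.71%), so few promoters of these lists had a copy in either place. Over all clusters 205 genes had a copied promoter, and 79 of them lay in the large run on chromosome 14. Copies come in sets and are not independent of one another, which the intervals do not cover.

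Large copied families did not all carry clusters. In the family of 57 genes on chromosome 14, 42 promoters lay in a cluster, 29 had a SOX2 peak on the promoter itself and 12 a CHD7 peak. A family of 22 genes on chromosome 5, which includes 5031410I06Rik, had 15 in a cluster, 11 with a SOX2 peak and 0 with a CHD7 peak on the promoter. In contrast, a family of 27 genes on chromosome 2 had 23 with a SOX2 peak on the promoter and 1 in a cluster, and 44 vomeronasal receptor genes of the Vmn1r family on chromosome 7, with near-identical promoters, had no SOX2 peak on any promoter and no cluster. Families with near-identical promoters thus occurred with and without clusters.

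**Figure D4:**
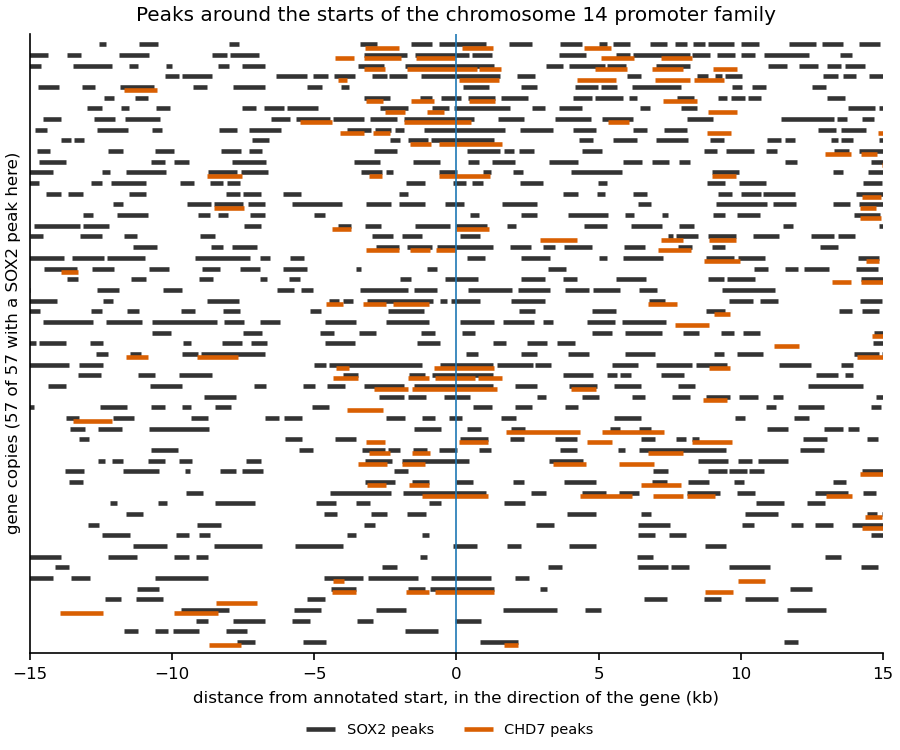
SOX2 peaks (black) and CHD7 peaks (orange) within 15 kb of the annotated start of the 57 genes of the chromosome 14 promoter family, 1 row per gene, with more SOX2 peaks in upper rows; the blue line is the start and distance runs in the direction of the gene. SOX2 peaks are spread along the window and CHD7 peaks in fewer rows.

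Across the 57 members of this family, which need not all match one another, SOX2 peaks were spread through the whole window. Every 1 kb bin within 15 kb of the start had a SOX2 peak in between 23 and 43 of the 57 copies. A SOX2 peak lay within 1 kb of the start in 48 copies and a CHD7 peak in 20. Neighbouring copies lie close together, so windows overlap and 1 peak can appear in more than 1 row.

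The CHD7 list was not used to choose the clusters. It comes from the same pool of cells and the same assay as the SOX2 list. The sample without a primary antibody was not used to check places where both lists have peaks, so background common to both was not tested. Of all joined groups 18.4% held a CHD7 peak. Among clusters the share was 1464 of 2445, or 59.9% (57.9% to 61.8%). Clusters are also wider than other groups, and the share among groups of 4 peaks was 47.7%. Per 10 kb of span, clusters held 0.737 CHD7 peaks and groups of 4 peaks 0.803. Developmental clusters held a CHD7 peak in 99 of 144 cases, or 68.8% (60.5% to 76.2%), clusters over predicted models in 185 of 327, or 56.6%, clusters over other named genes in 57.8% and gene-free clusters in 290 of 434, or 66.8%. Counted per 10 kb this was 0.836 in developmental, 0.677 in predicted, 0.668 in other named and 1.06 in gene-free clusters.

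Per SOX2 peak, overlap with CHD7 was higher inside clusters than outside them, and at equal SOX2 signal the order went with cluster size. Of all SOX2 peaks on these chromosomes 14.5% had at least 1 base on a CHD7 peak. In clusters the share was 18.5% (17.9% to 19.1%), and outside them 14% (13.8% to 14.2%). Peaks in clusters were stronger, and when the peaks outside were weighted to the same deciles of SOX2 signal, their share was also 18.5% over all clusters together. The strongest decile runs from 2053 to 390342, and signal was not matched within it, here or in the comparisons at the same signal below. In clusters of 5 to 9 peaks the share was 18.6% (17.9% to 19.2%), against 16.6% outside at the same signal, a value below the interval. In clusters of 10 to 19 peaks it was 16.4% (14.8% to 18%), against 21.4% outside, and in those of 20 or more 20.5% (18.6% to 22.5%), against 30% outside, both values above the interval. The direction differed by signal: in the weakest decile 9.22% (7.66% to 11%) of clustered peaks were on CHD7, against 4.66% outside, and in the strongest decile 49.7% (47.8% to 51.6%), against 60.3% outside.

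**Figure D5:**
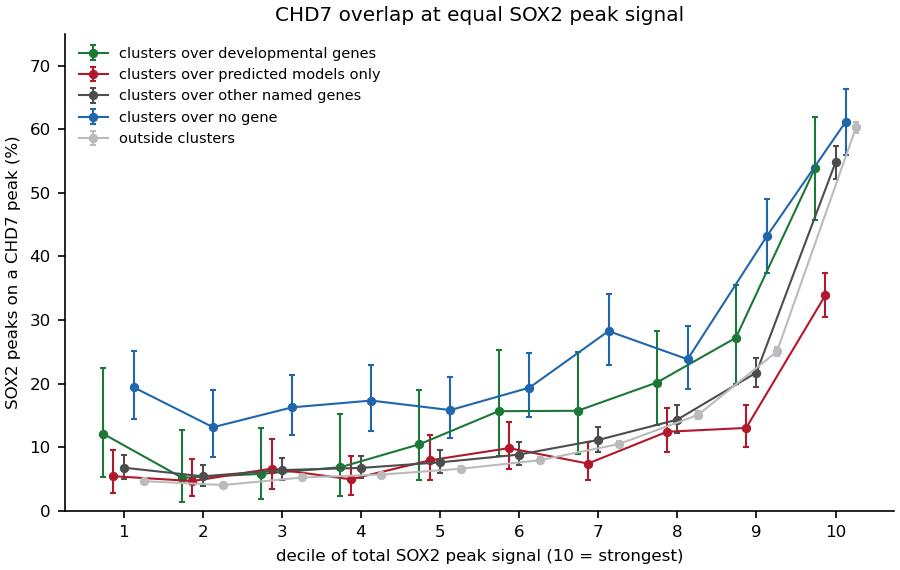
Percentage of SOX2 peaks on a CHD7 peak by decile of total SOX2 signal, for the 4 classes of clusters and for peaks outside clusters, with exact binomial 95% intervals. In the strongest decile peaks over predicted models only stand at 33.9% and those outside clusters at 60.3%; gene-free clusters lie above the peaks outside in the lower deciles.

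The classes differed in this respect, in a comparison that uses peak counts of 1 library pair. In developmental clusters 20.9% (18.4% to 23.6%) of SOX2 peaks were on CHD7, against 18.8% outside clusters at the same signal, a value inside the interval. In clusters over predicted models it was 14.6% (13.4% to 15.9%), against 22.6% outside at the same signal, a value above the interval. At 5 to 9 peaks a cluster the gap was smaller in predicted clusters, with 14.4% (12.6% to 16.3%), against 16.5% outside at the same signal, again above the interval. Predicted clusters without a copied promoter had 13.9% (12.3% to 15.7%), against 18.2% outside at the same signal. Those with a copied promoter had 15.3% (13.6% to 17.1%), against 26.8%, so the value outside was above the interval in both. Developmental clusters of 5 to 9 peaks had 21.9% (19.1% to 24.9%), against 18.5% outside at the same signal, here a value below the interval. Within the strongest decile the share was 33.9% (30.5% to 37.4%) in predicted clusters and 53.8% (45.7% to 61.8%) in developmental ones. In clusters over other named genes it was 17.0% over all peaks, against 17.6% outside at the same signal. Gene-free clusters had 28.0% (26.3% to 29.8%), against 17.0% outside at the same signal, a value below the interval. Restricting the gene-free class to clusters of 5 to 9 peaks left 27.1% (25.3% to 29.0%).

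The gene-free cluster of 67 SOX2 peaks on chromosome 6 (chr6:114489251-114637200) had 63 of them on CHD7, and the total signal of its 31 CHD7 peaks had a median of 3858 and reached 21706. The peaks covered 81.4% of its 147950 bases in an almost continuous block. Gene-free clusters otherwise lay at a median of 61.1 kb from the next named protein-coding gene. In 39 of 434, or 8.99% (6.47% to 12.1%), that gene was developmental, against 7.55% (7.25% to 7.85%) of gene-free single peaks, while 3.21% of named protein-coding genes are on the developmental lists. The intervals of clusters and single peaks overlap. Examples with several CHD7 peaks were 5 in a cluster 198 kb from Tbx18, 4 in one 25.8 kb from Gli3, the hedgehog effector gene, and 3 in one 1.27 kb from Atoh7. At Bmp7, which encodes a BMP ligand, 3 gene-free clusters lay 22.9, 62.6 and 114 kb from the gene. Gene-free clusters close to the first assembled bases of a chromosome included 13 SOX2 peaks on chromosome 3 (chr3:3000151-3033750), 10 of them on CHD7, and 20 on chromosome 9 (chr9:3039501-3083650), 5 of them on CHD7.

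SOX2 peaks of clusters were near annotated starts in 11.2% of cases (10.7% to 11.6%, within 1 kb of a start), against 8.07% outside clusters and 8.41% over all SOX2 peaks. The share was 16.2% (13.9% to 18.7%) in developmental clusters, 14.5% in clusters over other named genes and 8.0% in clusters over predicted models. Most clustered peaks of every class lay away from the annotated starts.

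Among named genes outside the developmental lists, several of the densest clusters lay over tandem gene families. Sprr2a1 and its neighbours, cornified envelope genes on chromosome 3 (chr3:92211601-92282700), had 44 SOX2 peaks and 0 CHD7 peaks. The Ugt1a genes on chromosome 1, which share exons and encode glucuronosyltransferases (chr1:88214551-88287550), had 38 and 6. Sfi1 and Pisd-ps1 on chromosome 11 (chr11:3112201-3202800) had 38 and 20, with a single SOX2 peak of total signal 96647. The interferon zeta region on chromosome 4, with Ifnz and 14 predicted models (chr4:88757451-88810550), had 21 and 14, and 17 of its SOX2 peaks were on CHD7. The highest summed signal of any cluster, 723124 over 13 SOX2 peaks, was at the 5S ribosomal RNA genes of chromosome 8 (chr8:123536901-123624300), where all 13 were on CHD7 and a CHD7 peak reached 143270. The Snhg14 cluster on chromosome 7, over tandem small nucleolar RNA genes, had 19 and 8. In the gene-dense region of Rab3a and Pik3r2 on chromosome 8 (chr8:70754051-70803100) there were also 19 and 8.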

How the data were processed

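The SOX2 and CHD7 peak lists were used. The submitters' processing notes name Bowtie2, SEACR, deepTools and the build mm10; the sources used here give no versions, calling settings or treatment of reads that match several places. Each row gives the authors' coverage signal of a peak, as total and as maximum, and how it was scaled is not stated. Signal was used only within a list, to describe and rank peaks. The lists give no depth, so precision is that of peak counts.

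Clusters were SOX2 peaks on chromosomes 1 to 19 joined at gaps of up to 5 kb, with at least 5 peaks. CHD7 overlap needed 1 base. Genes came from a RefSeq table of GRCm38.p6 and promoters of 300 bases from RefSeq, with 31396 promoters of 25748 genes matched by gene ID; promoters were compared with megablast (BLAST+ 2.17.0) and called copies at 90% identity over at least 250 bases. Chromosome 18 promoters were not used here. Shares outside clusters were also weighted to the clusters' deciles of SOX2 signal. Shares have exact Clopper-Pearson 95% intervals, and since every antibody has 1 library no test was made.

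Members and gene lists were chosen with earlier results of these data known. Hox, protocadherin, histone, olfactory receptor and tRNA lists were added after values were seen. Clusters named are those with the most SOX2 peaks over all classes, among developmental and among predicted-only clusters, those with the most CHD7 peaks, the highest summed signal and the widest, with up to 10 each, and any over Sox2 or Chd7. Other genes and clusters named, among them the Notch, bHLH, SOX and otic genes, the gene-free clusters and the printed promoters, were chosen after their values were seen. The joining and overlap steps were tested on simulated intervals. Analyses ran in Python 3.11.15 with scipy 1.17.1, pandas 2.3.3 and numpy 2.4.6, and figures with matplotlib 3.10.9. Alternatives were other joining distances, peak minimums, stronger peaks, stricter overlap and wider gene rules.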

Additional observations from a re-analysis of the deposited data

Results flagged for a closer look

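SOX2 peaks on the sex chromosomes and on unplaced or random contigs, which the rule for clusters leaves out, were also dense in places: under the same joining they formed 56 clusters. The contigs stood apart, with 290 of their 527 SOX2 peaks, or 55%, in 25 clusters of up to 41 peaks, 15 of them with a CHD7 peak. The X chromosome had 27 clusters with 223 of 4505 peaks, or 4.95%, of which 21 held a CHD7 peak, and the Y chromosome 4 clusters with 42 of 1221 peaks, or 3.44%. Genes on the contigs were not looked up.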

How the results depend on the processing

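The number of clusters followed the definition closely. It was 837 at a joining distance of 2.5 kb, 5874 at 10 kb, 5047 with a minimum of 4 peaks, 1247 with 6 and 488 with the stronger 50% of SOX2 peaks. In the same order, developmental clusters numbered 46, 314, 254, 82 and 39, predicted-only clusters 194, 725, 638, 203 and 124, those over other named genes 422, 3908, 2997, 789 and 253, and gene-free ones 175, 927, 1158, 173 and 72. Counting genes within 10 kb of the span left 249 gene-free clusters. The share of clustered SOX2 peaks on CHD7 was 23.3% at 2.5 kb, 15.6% at 10 kb, 17.7% with 6 peaks, 26% with the stronger 50% of SOX2 peaks, 11.7% with the stronger 50% of CHD7 peaks and 15.8% when the overlap had to cover at least 50% of the peak. It was above the share outside clusters, set up in the same way, under each of these. Clusters with a CHD7 peak made up 61.9% at 2.5 kb, 63.4% at 10 kb, 53.6% with 4 peaks, 63.1% with 6 peaks, 71.3% with stronger SOX2 peaks and 42.9% with stronger CHD7 peaks. With the stricter overlap, 53.9% of clusters held a SOX2 peak covered by CHD7 over at least 50% of its length. That is another measure than a CHD7 peak anywhere in the span. Of 56 values under alternatives 17 stayed within 1.5 times the count, or within the interval, of the value reported. These include, added after seeing the data, 18.6% of peaks on CHD7 in clusters of 5 to 9 peaks and 18.9% without clusters holding a copied promoter. Weighting to equal signal and the CHD7 shares by class were repeated for clusters of 5 to 9 peaks, by class also for copied promoters, and not under the other alternatives. No paired analysis was possible because each antibody has 1 library and no result comes from a test between samples.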

Other observations

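Replication-dependent histone genes, which lie in tandem arrays and are transcribed in dividing cells, were covered by clusters more fully than most of the developmental lists, in a list added after its values were seen. Of 66 such genes 36 lay under a cluster, or 54.5% (41.8% to 66.9%), against 11.1% of all protein-coding genes and 5.23% of those of the same length mix. They lay in 7 clusters on chromosomes 13 and 3, each with a CHD7 peak. Of the 53 SOX2 peaks in these clusters 34 were on CHD7, or 64.2% (49.8% to 76.9%), against 18.5% of all clustered peaks. Their median total signal was 2346, and 36.6% of peaks outside clusters were on CHD7 at the same signal, in a comparison added after seeing the data, a value below the interval. That median lies in the strongest decile, within which signal was not matched. The widest of these clusters, chr13:23738451-23764050 over H1f1, H3c1, H4c1 and 7 other genes, held 11 SOX2 and 7 CHD7 peaks.

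Transfer RNA genes gave a like picture. Of 391 tRNA genes 107 lay under a cluster, or 27.4% (23.0% to 32.1%), against 11.1% of all protein-coding genes. No share at the same length was computed for them. These genes lay in 26 clusters, so neighbouring genes are not independent. All 26 clusters held a CHD7 peak, against 59.9% of all clusters. Of their 202 SOX2 peaks 81 were on CHD7, or 40.1% (33.3% to 47.2%), against 18.5% of all clustered peaks and 26.8% of peaks outside clusters at the same signal. Some of these clusters also cover histone genes on chromosome 13. At the other extreme, 6 of 1452 olfactory and vomeronasal receptor genes, or 0.413% (0.152% to 0.897%), and 0 of 57 clustered protocadherin genes, which allows up to 6.27%, overlapped a cluster, although both kinds also lie in tandem arrays. Among all protein-coding genes of the same length mix the shares were 5.97% for the receptor genes and 12.9% for the protocadherin genes.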
